A study of Mus musculus with 4 samples.

Results

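The cells described here are mouse granulosa cells with the highest share of transcripts from Inhba, Inhbb, Nppc, Hsd17b1 and Cyp19a1, a set of genes used to mark granulosa cells of antral follicles. Granulosa cells were first gated in 4 single-cell RNA libraries of whole ovary: at least 5000 UMIs (molecular tags that count each captured transcript once), at most 20% mitochondrial UMIs, at least 3 of Foxl2, Fshr, Nr5a2, Kctd14, Gatm and Amhr2 with a UMI, and fewer than 5 UMIs of Dcn and Col1a1 per 10000. The members are the top 20% of gated cells by the summed share of the 5 rule genes. They numbered 1636 of 8179 gated cells and of 33639 cells in the series (4.86%).

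Each library held the cells of 1 group of mice, for which 1 ovary per animal from 5 animals was combined before dissociation, so variation among animals is not seen. Mice were first dosed on postnatal day 25 with their ovaries collected 4 hours after the second weekly dose of doxorubicin, an anthracycline that damages DNA. The control group received PBS or saline, the doxorubicin group 3 mg/kg, the doxorubicin+AMH group 3 mg/kg with 0.75 mg/kg of recombinant human anti-Müllerian hormone (AMH), and the AMH group 0.75 mg/kg of that hormone alone. The labels name no strain or genetic change. The libraries held 7141 to 9478 cells and 138647495 to 178279122 UMIs, and each pair shared 11 to 24 cell barcodes. With 1 library per group, every difference between groups below compares libraries and has no replicate check.

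Granulosa cells surround the oocyte and nourish it. As a follicle grows and fills with fluid under follicle-stimulating hormone (FSH), its granulosa cells make activins and inhibins, dimers built from the beta subunits that Inhba and Inhbb encode and, for inhibins, the alpha subunit of Inha. They turn androgens from the neighbouring theca cells into oestradiol through aromatase (Cyp19a1), with Hsd17b1 reducing oestrone to oestradiol. Mural cells, which line the follicle wall, also release C-type natriuretic peptide (Nppc), which holds the oocyte in meiotic arrest through the receptor Npr2. AMH itself is a product of granulosa cells of small growing follicles.

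In mm10 (GRCm38), Inhba lies at chr13:16011851-16031621 on the plus strand, Inhbb at chr1:119415465-119422248 on the minus strand, Nppc at chr1:86666291-86670571 on the minus strand, Hsd17b1 at chr11:101078411-101080527 on the plus strand and Cyp19a1 at chr9:54165937-54268110 on the minus strand. All 5 are protein-coding genes with no annotated gene overlapping on the same strand. The 250 bases upstream of the start are shown for Inhba, which carried most of the score, and for Nppc, the rule gene whose level in the members differed most between libraries. Both are RefSeq sequences of GRCm38.p6, read 5′ to 3′ on the strand of the gene, with capitals marking TATAAA. The starts are those of RefSeq, and for Nppc that start lies slightly upstream of the annotated gene given above. The Inhba window is chr13:16011601-16011850 on the plus strand and the Nppc window is chr1:86670574-86670823 on the minus strand.
Inhba: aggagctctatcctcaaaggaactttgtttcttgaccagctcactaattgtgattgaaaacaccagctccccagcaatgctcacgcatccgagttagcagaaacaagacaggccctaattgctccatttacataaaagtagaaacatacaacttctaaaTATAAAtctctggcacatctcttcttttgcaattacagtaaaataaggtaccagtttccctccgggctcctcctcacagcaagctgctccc
Nppc: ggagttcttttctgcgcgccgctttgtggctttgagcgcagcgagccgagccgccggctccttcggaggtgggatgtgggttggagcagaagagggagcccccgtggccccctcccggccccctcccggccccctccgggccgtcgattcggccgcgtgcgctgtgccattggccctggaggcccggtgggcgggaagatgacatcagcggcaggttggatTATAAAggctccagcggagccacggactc
In a RefSeq table of 32851 promoters of 300 bases, with a single chromosome left out, 13.6% held TATAAA on either strand. Both strands were also searched for the cAMP response element TGACGTCA (1.79% of those promoters), the NR5A half-site AAGGTCA (4.72%), the GATA site AGATAA (11.2%) and the forkhead site TGTTTAC (3.65%), and the 300 bases of Inhba and Nppc held none of these. A promoter was matched for 4 of the 5 rule genes, all except Hsd17b1.

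The score ran without a gap across the limit of 28.7 rule-gene UMIs per 10000. The lowest member scored 28.75 and the highest cell outside scored 28.68, with 135 members and 145 other gated cells within 10% of the limit. The median score was 52.3 in the members and 3.20 in the other gated cells, of which 567 had no UMI of any rule gene. The members are therefore the upper end of a continuous score, and whether they form a cluster by other genes was not tested.

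**Figure D1:**
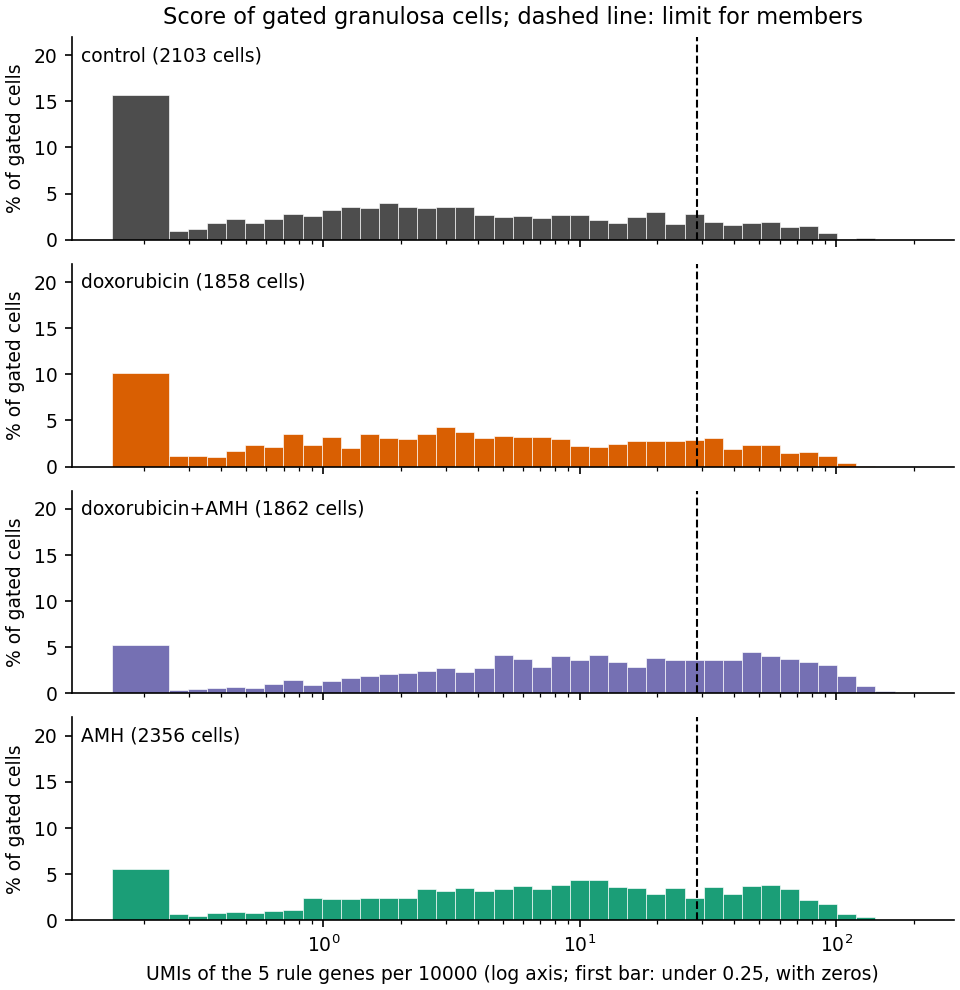
Histograms of the score, the UMIs of the 5 rule genes per 10000 UMIs of the cell on a log axis, for the gated cells of each library, as a percentage of those cells. Bars run through the dashed limit in every library, and more of the doxorubicin+AMH and AMH cells lie to its right.

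Inhba was the largest part of the score in 90.8% of the members and supplied 53.1% of their rule-gene UMIs. Hsd17b1 supplied 22.4%, Inhbb 14.2%, Nppc 8.82% and Cyp19a1 1.47%. A UMI of at least 4 of the 5 genes was seen in 96.3% of members, and of all 5 in 54.1%. The gene most often missing was Cyp19a1, with a UMI in 57.4% of members. Dropping 1 rule gene at a time kept between 85.6% of the members, without Inhba, and 99.4%, without Cyp19a1.

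These levels chose the cells and are given as a description. In the members, Inhba stood at 2948 CPM (UMIs of the summed cells scaled to a total of 1000000) in control members, 2924 with doxorubicin, 2865 with doxorubicin+AMH and 2913 with AMH, with little difference between libraries. Nppc stood at 258, 283, 632 and 521 CPM in the same order. Both libraries with AMH were thus higher in Nppc, and each was higher in the other gated cells too, where Nppc stood at 47.2, 51.2, 125 and 93.9 CPM. Inhbb ran from 724 to 813 CPM in the members, Hsd17b1 from 1111 to 1362 and Cyp19a1 from 73.4 to 95.2.

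Free RNA in the droplets sets a floor for such levels. After each cell was thinned to 5000 UMIs, 99.6 to 100% of members had a UMI of Inhba, against 23.7 to 42.0% of other gated cells, 6.49 to 20.3% of stromal cells and 1.18 to 11.9% of leukocytes. The leukocytes were taken as cells with Ptprc and no UMI of the 6 granulosa gate genes, which sets their share of granulosa transcripts low by choice, so they give no fair floor. Their Inhba stood at 3.58 to 25.7 CPM. For Cyp19a1 the thinned shares were 24.7 to 28.8% of members and 0.306 to 0.703% of stromal cells. Median depth before thinning was 23601.5 to 27069 UMIs in members, 25783 to 29979.5 in other gated cells, 10632 to 13252 in stroma and 8052.5 to 9889.5 in leukocytes. Stromal Inhba, above the leukocyte level, was 45.6 and 57.7 CPM in the control and doxorubicin libraries and 79.2 and 80.1 CPM in the doxorubicin+AMH and AMH libraries. How much of it is free RNA was not tested.

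**Figure D2:**
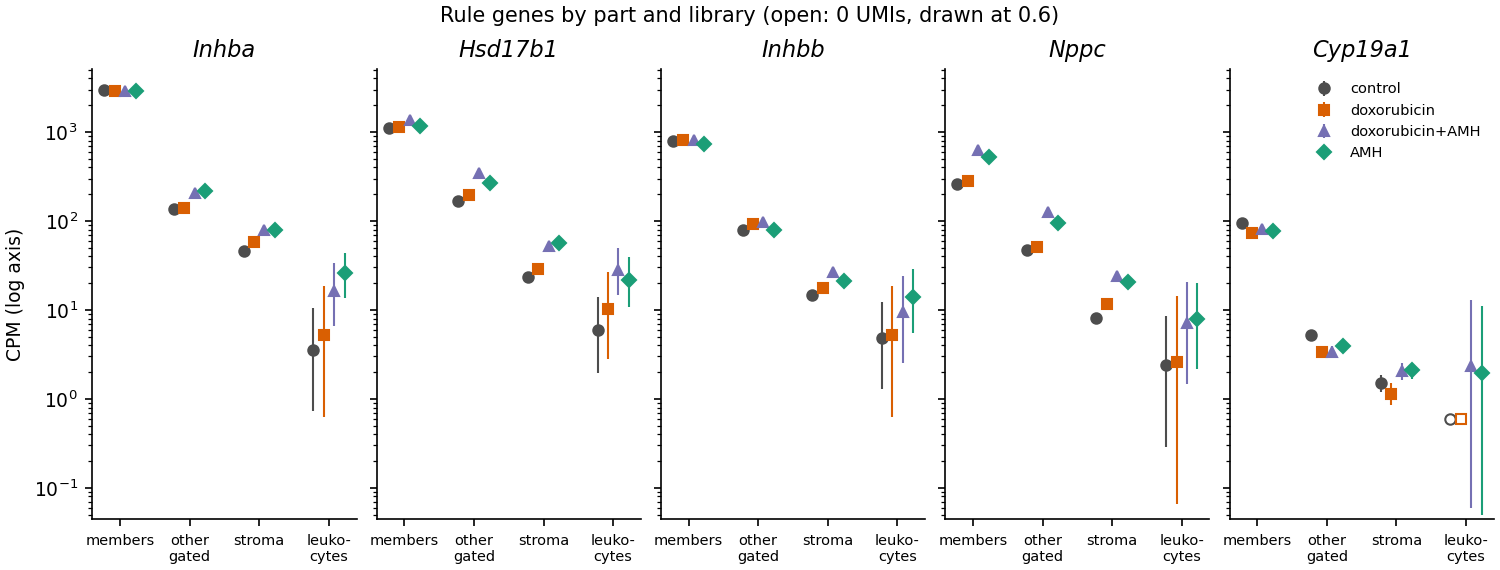
Levels of the 5 rule genes in CPM on a log axis, by library, in members, other gated cells, stroma and leukocytes, with 95% Poisson intervals that cover counting error only. In every panel the 4 member points stand above all points of the other parts.

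Members made up 11.98% of gated cells in control (95% exact Clopper-Pearson interval 10.6 to 13.4), 15.2% in doxorubicin (13.6 to 16.9), 30.2% in doxorubicin+AMH (28.1 to 32.3) and 22.9% in AMH (21.2 to 24.6). The counts behind these shares were 252 of 2103, 283 of 1858, 562 of 1862 and 539 of 2356 cells. Both libraries with AMH lay above both without it. The intervals, which cover counting error only, did not overlap, and the nearest bounds were 13.4 for control and 13.6 for doxorubicin. Because the rule used Nppc, which was itself higher in the libraries with AMH, the shares were also taken without it and stood at 12.2, 15.6, 29.8 and 22.8%. The gate let in cells with theca transcripts, and the summed theca markers of the other gated cells were 3190, 3156, 1207 and 1128 CPM in the same order, lower in both libraries with AMH. With cells above 2 UMIs of other cell types' markers per 10000 left out, the shares were 11.6, 14.6, 27.4 and 24.3%, so both libraries with AMH still lay above both without it, while the difference between them was smaller. The gated cells made up 22.9 to 26.0% of each library.

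Against the other gated cells of the same libraries, the members carried more inhibin alpha and follistatin transcripts, and less of most listed genes of small follicles and basement membrane. The test was edgeR's quasi-likelihood test on UMIs summed per library, with the library as a block (4 libraries, 8 sums). It left the 5 rule genes out. The gate genes Foxl2, Fshr, Nr5a2, Kctd14, Gatm, Amhr2, Dcn and Col1a1 were used in choosing the cells on both sides, so their values are given as a description, and the list counts below leave them out. They stayed among the genes tested and adjusted over, so the totals over all genes can include them. All other genes were read in the same cells as the score, so the test asks which genes went along with the score in each library and is no independent evidence that the members are a cell type. At an adjusted p under 0.05, 3864 of 17503 genes were higher in members (22.1%) and 4433 were lower (25.3%). Of these, 3720 and 4340 had the same direction in all 4 libraries, and 391 and 1924 differed at least 2-fold. The median log2 fold change over all genes was -0.0083.

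The other gated cells are mixed. Decile 1 of the score averaged 337 CPM of Cyp17a1, the theca enzyme that makes androgens, and 249 CPM of Star, which brings cholesterol into mitochondria, against 7.25 and 7.65 CPM in decile 10. Their summed stromal markers came to 238 to 288 CPM, against 68.0 to 83.2 CPM in members, with all 6 genes detected in both. Markers of surface epithelium came to 18.9 to 131 CPM against 3.91 to 6.36 CPM. The lists below are therefore counted in 3 ways, in the order main, marker-limited and neighbouring-score. Beside the main comparison stand a marker-limited one, with gated cells above 2 UMIs of other cell types' markers per 10000 left out of both sides before the limit was set (981 members, 3924 others), and a neighbouring-score one, with only the 2454 other cells of deciles 6 to 8 by score. Both were chosen after the data had been seen. They called 2924 genes higher and 3093 lower of 15967 (18.3% and 19.4%), and 2032 higher and 2357 lower of 15538 (13.1% and 15.2%).

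The label was checked against granulosa genes. Foxl2, a gate gene and the transcription factor that maintains granulosa cells, stood at 76.2 to 89.1 CPM in members and 59.2 to 91.8 CPM in other gated cells. Stroma held 80.5 to 108 CPM of Foxl2, so this gene does not set members apart from stroma. Fshr stood at 166 to 263 CPM in members and 9.98 to 11.8 CPM in stroma, a difference that the gate favours because Fshr is one of its genes. Of 10 granulosa identity genes that the gate did not use, 6 were higher in members and 2 lower (median log2 0.49), against 5 and 1 in the marker-limited comparison and 5 and 1 in the neighbouring-score one. Nr5a2, a nuclear receptor needed for ovulation and also a gate gene, stood at 563 to 861 CPM in members and 321 to 477 CPM in other gated cells.

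Genes of the inhibin and activin system moved in both directions. Inha, whose product joins the beta subunits to form inhibins, stood at 5380, 5056, 5824 and 5189 CPM in the members (control, doxorubicin, doxorubicin+AMH, then AMH, the order kept below), and at 1503, 1450, 2129 and 1768 CPM in the other gated cells. Every member value lay above every other value, and the log2 fold change was 1.69 ± 0.08 (SE, adjusted p = 5.56e-06, edgeR). Fst encodes follistatin, which binds and neutralises activins. It stood at 1404, 1281, 1521 and 1299 CPM against 429, 384, 611 and 454 CPM, a log2 fold change of 1.60 ± 0.08 (adjusted p = 7.83e-06, edgeR).

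Among the receptors, Tgfbr3, the betaglycan co-receptor through which inhibin blocks activin, was lower, at 38.0 to 56.4 CPM against 98.6 to 162 CPM (log2 fold change -1.42 ± 0.04, adjusted p = 1.81e-06, edgeR). The activin type 2 receptors Acvr2a and Acvr2b (log2 -0.08 and -0.03) and the signal carriers Smad2, Smad3 and Smad4 (log2 0.11, -0.27 and 0.06) did not pass. In all, 2 of the 12 tested genes of the list were higher and 5 lower, with a median log2 of -0.17. The counts were 2 and 3 in the marker-limited comparison, and 3 and 3 in the neighbouring-score one. Inha, Fst and Tgfbr3 kept their calls in both, with Inha at 1.34 and 0.82.

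Among genes of FSH action, a regulatory subunit of protein kinase A was higher. Fshr, the receptor and one of the gate genes, stood at 236, 263, 181 and 166 CPM in members and at 107, 90.6, 76.7 and 66.5 CPM in other gated cells. Prkar2b, the RII-beta subunit, stood at 1772, 1516, 1449 and 1561 CPM against 588, 474, 394 and 415 CPM (log2 1.79 ± 0.06, adjusted p = 2.13e-06, edgeR). Of the cAMP phosphodiesterases, Pde8a was higher (log2 0.82) and Pde7b lower (log2 -0.64), both in all 3 comparisons.

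The receptor for luteinizing hormone (LH), Lhcgr, shows how far the comparator matters. It averaged 16.7 CPM in members and 61.9 CPM in all other gated cells (log2 -1.80 ± 0.16, adjusted p = 9.20e-05, edgeR). In the marker-limited comparison its log2 fold change was 2.35 and called higher, and in the neighbouring-score one it was 0.23 and not called. Pde10a likewise stood at -0.67, 1.20 and 0.84. Over 17 genes of the list without Fshr, 2 were higher and 10 lower (median log2 -0.21), against 5 and 5 of 16 and 4 and 2 of 16 in the narrower comparisons.

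Steroid-synthesis genes split the same way. Hsd3b1, which makes progesterone from pregnenolone, stood at 1899, 1574, 1541 and 1539 CPM in members and at 1013, 955, 397 and 381 CPM in other gated cells, without overlap (log2 1.43 ± 0.22, adjusted p = 0.00136, edgeR). It was higher still in the marker-limited comparison (log2 2.32) and stood at 1.60 in the neighbouring-score one. Cyb5a, the cytochrome b5 that donates electrons to P450 enzymes, stood at 2168 to 2628 CPM against 839 to 1269 CPM (log2 1.28). Fdxr, the reductase that feeds the mitochondrial P450 chain, was higher in all 3 comparisons, with log2 0.74 in the main one.

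Cyp11a1, which opens the pathway by cleaving cholesterol, and its electron donor Fdx1 were lower against all other gated cells (log2 -1.40 and -0.44) and higher against marker-limited ones (log2 2.43 and 1.33). Across libraries, Cyp11a1 ran from 48.95 to 83.7 CPM in members and from 62.4 to 510 CPM in other gated cells, so its levels overlapped. Cyp17a1 stood at 10.8, 8.85, 0.927 and 2.84 CPM in members and at 257, 269, 26.6 and 18.4 CPM in other gated cells (log2 -4.35 ± 0.28, adjusted p = 2.30e-05, edgeR). In the marker-limited comparison, whose filter counts Cyp17a1 itself, it stood at 0.63 and was not called (adjusted p = 0.134). Of the 15 tested genes of the list without Nr5a2, 4 were higher and 8 lower (median log2 -0.35), against 9 and 3 in the marker-limited comparison and 7 and 3 in the neighbouring-score one.

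Among oestrogen-response genes, 7 of 12 were higher and 4 lower (median log2 0.28). Greb1, a coactivator that oestrogen receptors induce, stood at 848, 782, 718 and 646 CPM in members against 403, 365, 347 and 288 CPM (log2 1.12 ± 0.04, adjusted p = 2.82e-06, edgeR). Ccnd2, the D-type cyclin of granulosa cell growth, was higher by log2 0.72. The oestrogen receptor Esr2 was higher by log2 0.40 against all other gated cells and stood at 0.05 and 0.08, not called, in the narrower comparisons. Counts there were 6 higher and 1 lower, and 5 and 4.

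Other genes of the C-type natriuretic peptide system were mostly lower. Npr2, the peptide's receptor, stood at 19.4 to 31.0 CPM in members and 17.5 to 25.6 CPM in other gated cells, overlapping levels with a log2 fold change of 0.25 ± 0.08 (adjusted p = 0.0315, edgeR) that turned to -0.39 in the neighbouring-score comparison. The kinase gene Prkg1, which cGMP activates, averaged 9.87 CPM against 45.1 CPM (log2 -2.13). In all, 2 of 9 tested genes were higher and 6 lower, with 1 higher in each narrower comparison and 4 of 7 and 5 of 8 lower.

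The genes furthest apart were chosen by a rule: an average of 20 CPM or more in the 8 sums, the same direction in all 4 libraries, and the 10 highest and 10 lowest log2 fold changes. Such an average lets in genes through the side where they are high, so these ends are a description. Nrp1, for example, averaged 3.42 CPM in members and 37.8 CPM in other gated cells, and Mfsd2a 32.8 and 8.02 CPM. The highest was Grem1, gremlin 1, an antagonist of bone morphogenetic proteins (BMPs), at 35.9, 31.1, 62.4 and 53.8 CPM in members and 4.88, 4.77, 8.67 and 9.24 CPM in other gated cells (log2 2.76 ± 0.07, adjusted p = 1.47e-06, edgeR). Both libraries with AMH were higher than both without it, in members and in other cells alike. Rhox8, an X-linked homeobox gene of the reproductive tract, followed (log2 2.49), with 48.8 to 80.7 CPM against 6.83 to 18.0 CPM.

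Gsta4, a glutathione transferase that clears lipid peroxidation products, stood at 232, 190, 140 and 116 CPM against 42.4, 47.3, 17.8 and 25.8 CPM (log2 2.42), lower in both libraries with AMH. Nap1l5, an imprinted gene related to histone chaperones, was the most abundant of the 10, at 671 to 806 CPM against 131 to 253 CPM (log2 2.17). Robo2, a receptor for Slit guidance proteins, stood at 398, 274, 631 and 710 CPM against 89.7, 67.0, 149 and 176 CPM (log2 2.10). Also in this set were Mfsd2a, a transporter of lysophosphatidylcholine (log2 2.07), the complement protease gene Masp1 (1.96), Ltbp1, which binds latent TGF-beta (1.90), and Psd, an exchange factor for ARF6 (1.88).

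The lowest after Cyp17a1 was Kcnd2, a voltage-gated potassium channel, at 17.5, 11.5, 9.27 and 10.6 CPM in members and 325, 306, 152 and 186 CPM in other gated cells (log2 -4.23 ± 0.10, adjusted p = 1.14e-06, edgeR). Shroom3, which constricts the apical side of epithelial cells, stood at 26.4, 16.2, 15.1 and 14.2 CPM against 252, 228, 149 and 180 CPM (log2 -3.48). Fgd5, a CDC42 exchange factor known from endothelium (-3.78), the basement membrane collagen Col18a1 (-3.65), the calcium channel subunit Cacnb2 (-3.45), the semaphorin and VEGF co-receptor Nrp1 (-3.32), Asb4 of a ubiquitin ligase family (-3.32), the diacylglycerol kinase Dgkb (-3.24) and the chemokine Ccl21a (-3.18) made up the rest. All of the genes named at these ends except Cyp17a1 had the same direction in both narrower comparisons, and Ccl21a was not called in either.

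**Figure D3:**
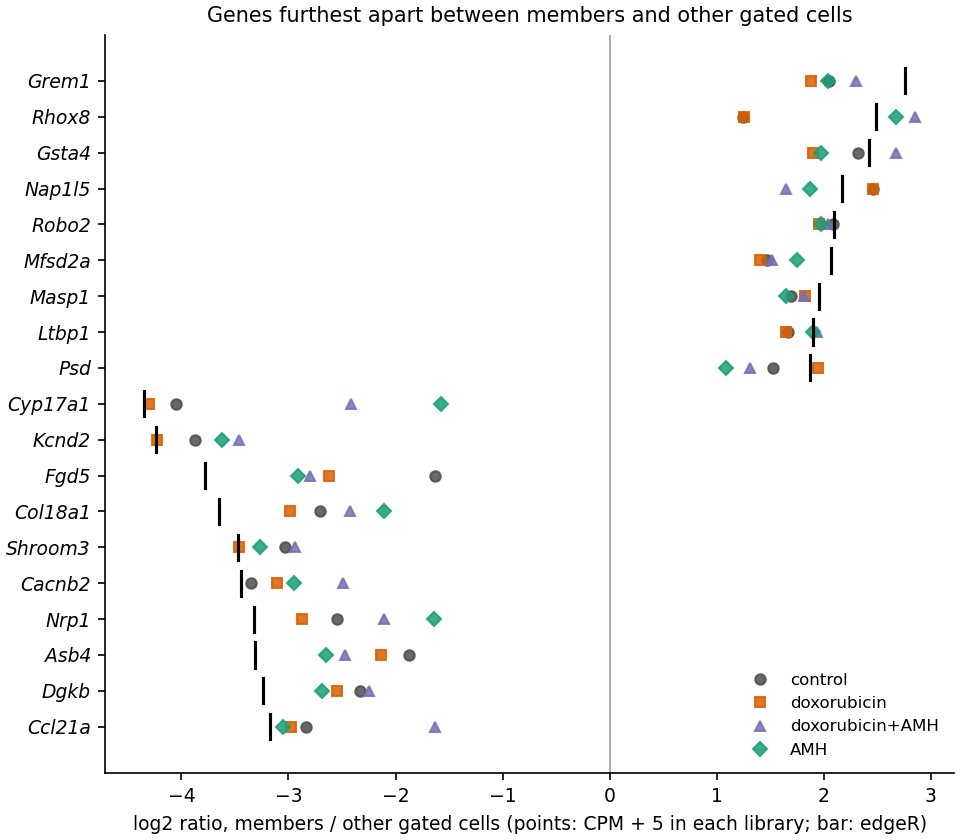
Log2 ratio of members to other gated cells for the highest and lowest genes named in the text, with a point for each library (CPM plus 5) and a bar for the edgeR estimate, which lies further out for low genes because no 5 CPM are added. All points of the upper set lie above 0 and all points of the lower set below 0, as the choice of genes with the same direction in all 4 libraries required.

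For some of these genes, reads could also fit another gene, and the effect on their values was not tested. Robo2, Ltbp1, Kcnd2, Fgd5, Shroom3, Cacnb2, Nrp1 and Dgkb overlap another annotated gene on the same strand. The 3′ ends of Ltbp1, Shroom3 and Ccl21a share stretches of 50 bases with 28, 30 and 2 other genes.

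Most genes of small follicles were lower in the members. Of 10 that the gate did not use, 8 were lower and 1 higher (median log2 -1.77), and 8 were lower and 0 higher in each narrower comparison. This list, like the others, was chosen with earlier results of these data known, so its counts are a description. Wt1, a transcription factor of early granulosa cells, stood at 13.7 to 24.4 CPM against 76.5 to 154 CPM (log2 -2.35), without overlap. Igfbp5, which binds insulin-like growth factors, stood at 12.3 to 22.5 CPM against 58.5 to 158 CPM (log2 -2.52).

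Amh stood at 48.1, 56.1, 35.2 and 32.2 CPM in members and at 121, 186, 77.2 and 42.7 CPM in other gated cells, where the AMH library's other cells came within the range of the members (log2 -1.12 ± 0.18, adjusted p = 0.00165, edgeR). The gene that was higher, Hmgn5, a nucleosome-binding protein, was not called in either narrower comparison. The list also holds 3 gate genes, given as a description. Gatm, which makes a creatine precursor, stood at 6.23, 6.16, 11.1 and 16.7 CPM in members and 61.4, 62.7, 54.2 and 69.3 CPM in other gated cells. Amhr2, the receptor gene of AMH, stood at 71.8 to 83.3 CPM and 102 to 134 CPM. Kctd14, whose 3′ end shares stretches of 50 bases with 58 other genes, stood at 135, 99.7, 54.9 and 77.8 CPM and 264, 284, 97.2 and 77.0 CPM, with nearly the same level on both sides in the AMH library.

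Follicle matrix genes were lower too, 13 of 16 with 2 higher (median log2 -1.26), against 12 and 2 in the marker-limited comparison and 11 and 2 in the neighbouring-score one. Col4a1, a chain of basement membrane collagen, stood at 22.6, 15.2, 11.5 and 19.9 CPM in members and 139, 127, 101 and 107 CPM in other gated cells (log2 -2.76 ± 0.12, adjusted p = 4.91e-06, edgeR). The genes that were higher were Vcan, a proteoglycan of follicular fluid and of the matrix between cells (log2 0.96), and Ihh, the hedgehog ligand that granulosa cells send to theca cells (log2 1.19), at 66.3, 79.2, 46.9 and 33.5 CPM against 24.3, 41.5, 21.9 and 14.7 CPM. Ihh was lower in both libraries with AMH on either side of the limit, and its member and other values overlapped across libraries though not within any.

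Of 22 genes listed for cumulus cells, which surround the oocyte, 14 were higher and 3 lower (median log2 0.37), against 13 and 3 of 21 and 11 and 5 of 21. Apart from Npr2, the genes that rose encode enzymes of glycolysis or of cholesterol synthesis. Eno1, enolase, stood at 149 to 195 CPM against 69.9 to 99.7 CPM (log2 1.10), and Fdps, farnesyl diphosphate synthase, at 150 to 190 CPM against 71.9 to 90.6 CPM (log2 1.10). The amino acid transporter Slc38a5, often used to mark cumulus cells, stood at 109, 114, 122 and 95.7 CPM against 69.3, 74.4, 124 and 93.0 CPM, overlapping levels that did not pass (log2 0.34, adjusted p = 0.0603, edgeR) and were lower in the neighbouring-score comparison (log2 -0.44). Slc38a3, its relative, was lower in all 3 comparisons, with log2 -1.02 in the main one.

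Genes that LH induces in the hours before ovulation were at mixed levels and summed to 481 to 556 CPM in members. Areg averaged 1.62 CPM, Ptgs2 0.519 CPM and Pgr 1.04 CPM, while Vcan averaged 136 CPM. Of 14 tested, 2 were higher and 7 lower (median log2 -0.90), against 5 and 4 of 13 and 3 and 4 of 12. In the IGF system 2 of 13 were higher and 9 lower (median log2 -0.40), against 2 and 6 of 12 and 0 and 6 of 12. Igf1, the growth factor itself, averaged 169 CPM in members and 139 CPM in other gated cells (log2 0.32) but was lower than in the neighbouring-score cells (log2 -0.24).

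Cell-cycle genes were higher in members than in all other gated cells, with 38 of 38 G2/M genes (median log2 0.82) and 26 of 30 S-phase genes (median 0.48) called higher and none lower. Top2a, the topoisomerase that untangles DNA before division, stood at 300, 310, 389 and 307 CPM against 182, 160, 251 and 167 CPM (log2 0.82 ± 0.06, adjusted p = 4.49e-05, edgeR). The mitotic cyclin Ccnb2 stood at 105 to 132 CPM against a mean of 56.8 CPM (log2 1.06). Against marker-limited cells 36 G2/M and 8 S-phase genes were higher, with 0 and 2 lower. Against neighbouring-score cells 11 G2/M genes were higher and 1 lower, while 2 S-phase genes were higher and 14 lower.

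After thinning to 5000 UMIs, 82.1% of control members, 82.7% of doxorubicin members, 86.3% of doxorubicin+AMH members and 88.5% of AMH members had at least 5 UMIs of S or G2/M genes. The shares were 62.8, 64.5, 71.3 and 70.9% in other gated cells, 44.7 to 56.2% in stroma and 58.8, 50, 66.7 and 69.4% in the 28 to 85 leukocytes of each library. How much of the stromal and leukocyte shares is free RNA was not tested. All 4 parts were higher in both libraries with AMH than in both without it, so no order of the groups is read from these shares.

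p53 target genes were lower than in all other gated cells, 16 of 30 with 4 higher (median log2 -0.26), against 8 and 4, and 9 and 2. Btg2, an antiproliferative p53 target that dissociation also induces, averaged 120 CPM against 276 CPM (log2 -1.18) and was lower in all 3 comparisons. Immediate early and heat-shock genes that tissue dissociation induces were lower for 13 of 19 and higher for 2 (median log2 -0.43), but 8 and 7 were higher and 6 and 5 lower in the narrower comparisons. Fos, an immediate early transcription factor, averaged 1732 CPM in members and 1796 CPM in other gated cells and was not called (log2 -0.03), though it was called higher in both narrower comparisons (log2 0.15 and 0.12). Apoptosis genes were split evenly, 6 higher and 6 lower of 20, against 4 and 3, and 2 and 2.

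Summed markers of most other cell types were low in members. Those of leukocytes came to 8.45 to 28.2 CPM, of oocytes to 5.15 to 5.996 CPM and of endothelium to 38.4 to 68.7 CPM. Of 6 endothelial genes 5 were lower than in all other gated cells, while 2 of 5 and 3 of 6 were higher in the narrower comparisons. Among the defining genes, 2 of 8 leukocyte markers were at 0 in each library without AMH, and 3 to 5 of 8 oocyte markers were at 0 in every library. Smooth muscle markers came to 182 CPM in doxorubicin+AMH members against 33.3, 40.9 and 52.3 CPM in those of control, doxorubicin and AMH, and erythroid genes to 287 CPM (control), 33.8 CPM (doxorubicin), 334 CPM (doxorubicin+AMH) and 9.98 CPM (AMH). A few cells carried these sums: the median of the erythroid genes was 0 in the members of every library with a 90th percentile of 0.331 to 0.545 UMIs per 10000, and the 90th percentile of smooth muscle markers was 0.735 to 1.08. The counts of these lists in the marker-limited comparison are shaped by its filter, which uses the same genes apart from the erythroid ones, with Cyp17a1 and Insl3 alone for theca. The theca list, which holds Hsd3b1, came to 2117 to 2558 CPM. Of its genes 7 of 8 were lower than in all other gated cells and 1 higher, against 1 lower and 5 higher of 7 and 2 lower and 3 higher of 7. Stromal markers other than Dcn and Col1a1 were lower for 4 of 4, 1 of 4 and 4 of 4, and smooth muscle markers for 5 of 5, 2 of 5 and 2 of 5, with 0 higher. Leukocyte markers were lower for 1 of 6, 0 of 4 and 0 of 5, and none of 4 erythroid genes was called in any comparison. Oocyte markers were lower for 2 of 3, then higher for 2 of 2 and 1 of 2. Surface epithelium markers were lower for 6 of 6, 1 of 1 and 1 of 3. Doublet scoring placed 2.12 to 4.45% of members and 5.97 to 10.7% of other gated cells among the highest scores.

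Levels along the whole score put these differences in order. The gated cells were split into 10 deciles by score and summed per library, with the members as deciles 9 and 10. Mean Inha rose at each step from 305 to 6523 CPM, Fst from 39.9 to 1613 CPM and Grem1 from 0.458 to 60.6 CPM. Prkar2b stayed between 296 and 507 CPM up to decile 6 and then rose to 2039 CPM. Within the members, decile 10 exceeded decile 9 in Prkar2b (2039 against 1224 CPM), Hsd3b1 (2128 against 1270 CPM) and Grem1 (60.6 against 34.1 CPM), while Fshr stood at 204 CPM in decile 10 and 216 CPM in decile 9.

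Another set peaked between the ends. The mean of Amh was 187, 198 and 190 CPM in deciles 5 to 7, with the peak of single libraries falling in any of these, and stood at 57.1 and 24.2 CPM in deciles 9 and 10. The mean of Slc18a2, a vesicular amine transporter gene, was highest in decile 5 (241 CPM), and that of Slc38a5 in decile 7 (157 CPM). Single libraries differed here too. Slc18a2 was highest in decile 3 in control and in decile 6 in AMH. Slc38a5 was highest in decile 5 in control and in decile 8 in AMH. Mean Top2a stood at 320, 340, 347 and 302 CPM in deciles 7 to 10, with the highest decile differing between libraries: decile 7 in control and AMH, and decile 9 in the others. Mean Hsd3b1 was high at both ends, with its lowest level, 298 CPM, in decile 5.

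**Figure D4:**
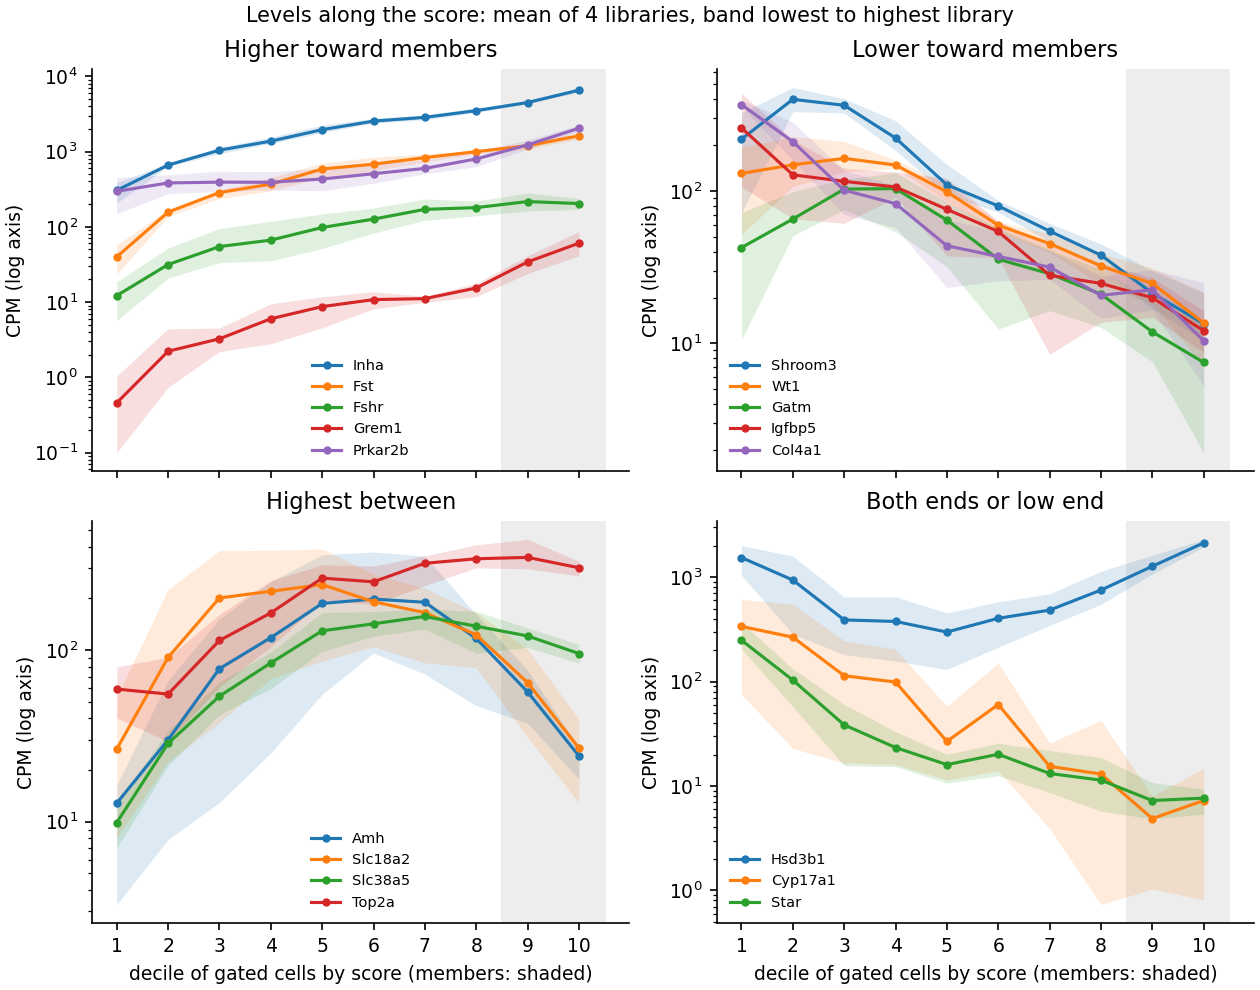
Mean level of 17 genes in CPM, on log axes, in the 10 deciles of gated cells by score, with bands from the lowest to the highest library and the members shaded. Inha and Fst climb throughout, Amh is highest in the middle deciles, and Cyp17a1 and Star are highest at the low end.

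The members were set beside 3 other ranges of the same gate, each the top 20% by other genes. They shared 5.32% of their cells with the range high in Gatm and Kctd14, 25.1% with the range high in Slc38a5 and 4.28% with the range high in Shroom3 and Kcnq5. Each range holds 20% of all gated cells. The share with the Slc38a5 range lay above that level, and the other shares lay below it. Grem1 averaged 45.8 CPM in members and 2.44, 17.9 and 11.9 CPM in those ranges. Some low levels were shared with the ranges. Col18a1 stood at 3.31 CPM in members and 133.5, 3.43 and 6.31 CPM in the ranges. Nrp1 stood at 3.42 against 7.59, 5.125 and 7.48 CPM, and Ccl21a at 6.49 against 3.225, 6.76 and 6.69 CPM. Amh stood at 42.9 CPM in members and 233, 131 and 29.1 CPM in the ranges. Kcnd2 was lower in members than in every range, at 12.2 against 270, 34.1 and 300 CPM. Top2a stood at 327 CPM in members and 237, 348 and 117 CPM in the ranges. These ranges were chosen by their own genes and share cells with the members, so the values are a description.

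Between libraries, few genes differed in the members in both comparisons of a treatment. Log2 ratios of CPM plus 5 were taken for 6476 genes, those whose level averaged 20 CPM or more across the 4 member sums. AMH was compared with control and doxorubicin+AMH with doxorubicin, which share no library. A ratio of at least 1 in both was seen for 7 genes (0.108%) and of -1 or less for 4 (0.0618%). The 7 include the rule gene Nppc. A mean over the libraries lets in genes through the libraries where they are high, as with Igfbp4 and Smad6 in the AMH pairs and Cdkn1a and Ccng1 in the doxorubicin pairs below, so the counts are a description. For doxorubicin over control and doxorubicin+AMH over AMH, both counts were 0 (0.0% each). In single pairs, AMH over control had 9 genes at 1 or more (0.139%) and 15 at -1 or less (0.232%), and doxorubicin+AMH over doxorubicin had 17 (0.263%) and 8 (0.124%). Doxorubicin over control had 1 (0.0154%) and 6 (0.0926%), and doxorubicin+AMH over AMH had 5 (0.0772%) and 0 (0.0%).

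The highest in both AMH pairs was Kcnb2, a delayed rectifier potassium channel, at 65.5 and 52.4 CPM in control and doxorubicin members and 238 and 230 CPM in doxorubicin+AMH and AMH members, with log2 ratios of 1.74 and 2.08. In the other gated cells its ratios were 1.18 and 1.09. Gm35533, a long noncoding RNA gene, stood at 130, 74.3, 249 and 315 CPM in members (log2 1.24 and 1.68), but its ratios in other gated cells were 0.64 and 0.02. Crabp2, which carries retinoic acid to its receptor, stood at 41.2, 61.5, 150 and 142 CPM (log2 1.67 and 1.22). The libraries with AMH were above those without it for each of these genes in members, an order that the choice by both ratios largely fixed.

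Igfbp4, a binding protein for insulin-like growth factors, stood at 9.75, 18.3, 48.2 and 55.6 CPM (log2 2.04 and 1.20). Its 3′ end shares stretches of 50 bases with 80 other genes. Smad6, an inhibitor that BMP signals induce, stood at 12.5, 13.2, 36.5 and 45.6 CPM (log2 1.54 and 1.19), and at 27.4, 30.7, 69.5 and 96.7 CPM in other gated cells (log2 1.65 and 1.06). Nppc, though used by the rule, had ratios of 1.00 and 1.15 in members and 0.92 and 1.21 in other gated cells.

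At the low end, Cacna1a, a calcium channel subunit, stood at 29.9, 38.7, 8.99 and 8.79 CPM (log2 -1.34 and -1.64). Slc18a2 stood at 65.1, 75.7, 28.5 and 24.6 CPM (log2 -1.24 and -1.27), and at 238, 228, 90.4 and 62.5 CPM in other gated cells (-1.85 and -1.29). Fbn2, fibrillin 2 of elastic microfibrils, stood at 127, 88.05, 41.3 and 59.1 CPM (log2 -1.04 and -1.01). In other gated cells the ratios of Fbn2 were -0.06 and -0.61. The desmosome gene Dsp (-1.01 and -1.11) and Ntng1, a netrin-related adhesion gene (-0.99 and -0.91), completed the set.

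All 8 BMP and SMAD target genes of the list, with no filter on level, had ratios above 0 in both AMH pairs, as did 18.4% of the 23993 genes with any UMI in members. Smad7, another inhibitory SMAD, stood at 66.2, 75.6, 132 and 117 CPM (log2 0.77 in each pair). Id1 (0.02 and 0.44) and Id3 (0.02 and 0.19) lay near 0 in AMH against control.

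The highest in both doxorubicin pairs was Cdkn1a, the CDK inhibitor p21 and a p53 target, at 11.2 and 11.6 CPM in control and AMH members and 50.1 and 27.3 CPM in doxorubicin and doxorubicin+AMH members, so that both libraries with doxorubicin were above both without it. Its log2 ratios were 1.76 over control and 0.96 over AMH, and 1.79 and 0.36 in other gated cells, where the levels were 18.2, 75.3, 27.2 and 20.2 CPM. Ccng1, cyclin G1 and also a p53 target, stood at 13.8, 28.8, 25.1 and 13.7 CPM in members (log2 0.84 and 0.69). Slc25a42, a mitochondrial carrier of coenzyme A (0.46 and 0.51), and Kcnab1, a potassium channel subunit (0.44 and 0.53), were next, and Kcnab1 had ratios of -0.19 and -0.23 in other gated cells. Whether any ratio differs between members and other gated cells was not tested, since each group has 1 library.

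Acta2, smooth muscle actin, was also among the 5 chosen, at 14.2, 20.3, 100.1 and 28.9 CPM in members (log2 0.40 and 1.63). It moved with the summed smooth muscle markers given above, and its smaller ratio was -0.092 once cells with other types' markers were left out. Among the lowest genes were Pcdh9, a protocadherin (-0.89 and -0.69), the histone gene Hist1h2ap (-1.53 and -0.65), Dync1i1, a dynein chain (-0.55 and -0.58), and the alpha-catenin gene Ctnna2 (-0.58 and -0.54). Reads of Hist1h2ap could also fit 24 other genes that share stretches of its 3′ end. Kcnb2, Kcnab1, Pcdh9 and Ctnna2 overlap another gene on the same strand.

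Of all 30 p53 target genes, with no filter on level, 17 had ratios above 0 in both doxorubicin pairs, as did 21.3% of the 23993 genes with any UMI in members. Bax, a death effector and p53 target, stood at 110, 144, 135 and 113 CPM in members (log2 0.38 and 0.25). Mdm2, which degrades p53, stood at 43.9, 45.5, 43.2 and 40.5 CPM (0.05 and 0.08). The 19 dissociation genes, all of which averaged 20 CPM or more, had medians of 0.21 and 0.16 in the same pairs in members and -0.03 and -0.12 in other gated cells. The part of handling in the p53 values was not tested.

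**Figure D5:**
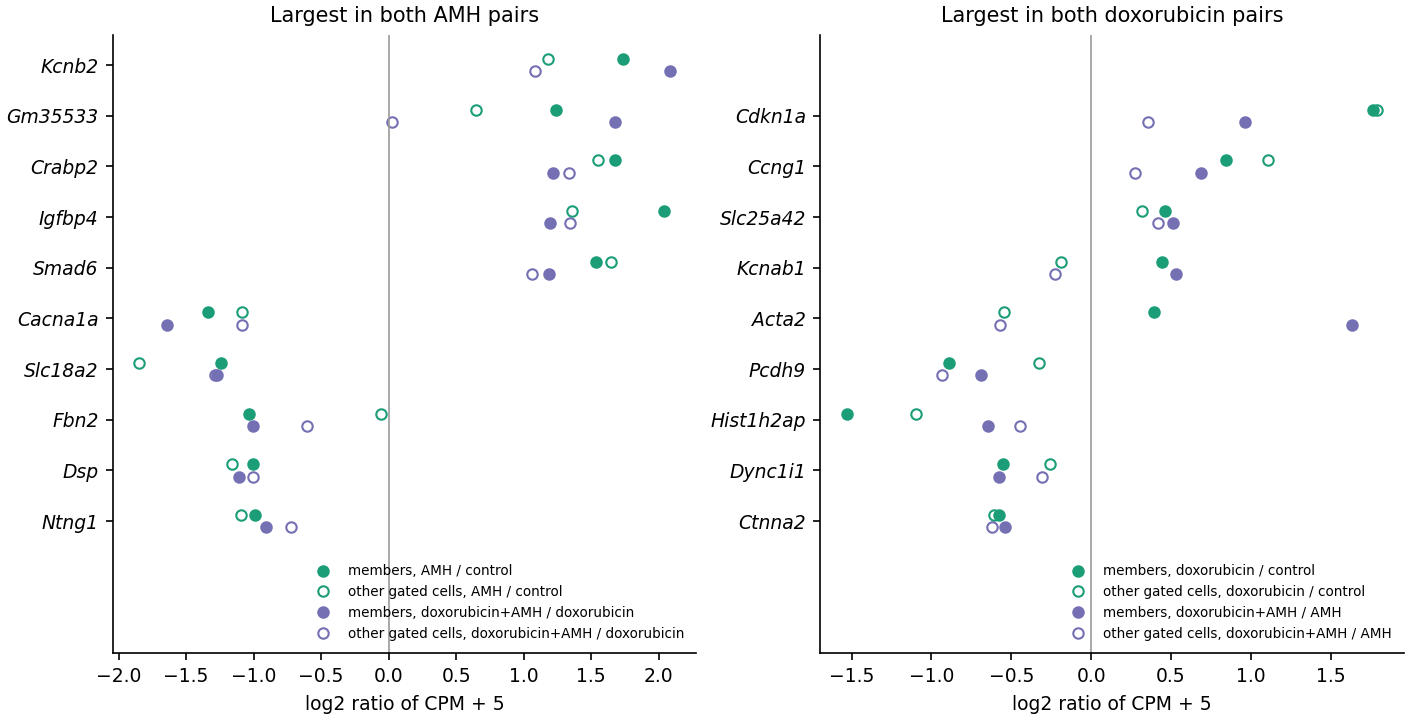
Log2 ratios of CPM plus 5 for the genes named in the AMH pairs (left) and in the doxorubicin pairs (right), with filled circles for members, open circles for other gated cells and a colour for each pair. In the left panel Gm35533 and Fbn2 are the genes with open circles near 0, and in the right panel Cdkn1a stands furthest to the right in the ratio of doxorubicin to control.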

How the data were processed

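Cell Ranger filtered matrices of raw UMI counts per gene and cell were deposited by the authors, 1 per library. Cell Ranger 7.0.0 is named per the file headers, and mm10, R 4.2.0 and Seurat 4.1.0 per the submitters' processing notes, with no role given. Whether intronic reads were counted is not given in the sources used here. The members, gene lists and comparisons were chosen with earlier results of these data known.

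Cells were gated by the rule stated in the results. Counts were summed per library for members and for other gated cells. The sums were tested with edgeR 4.0.16 (TMM, quasi-likelihood, library as a block, genes passing filterByExpr, Benjamini-Hochberg adjustment, threshold 0.05). The library pairs members and other cells because both come from the same pool. On simulated sums of 17807 genes, all genes changed by 1 or 2 on the log2 scale were recovered, as were 48.5% at -0.5 and 63.6% at 0.5. The changed genes were a small set drawn from those with higher counts. All genes were simulated with a single fixed dispersion that was not estimated from the data. The recovery therefore does not speak for genes at low counts or for other dispersions. Libraries were compared without a test, as log2 ratios of CPM plus 5 for genes averaging 20 CPM or more. Named genes were the 10 at each end for members against others, and the 5 at each end by the smaller of both ratios for each pair. A few genes that the rule or lists gave are not reported here, though they stay in the counts. Intervals are exact, at 95%, and cover counting error only. Doublet scores came from scanpy 1.11.5, and cells with the highest scores were kept in the main analysis and left out in an alternative. Genes were placed by GENCODE annotation of GRCm38, which held 32235 of 32285 identifiers. Other alternatives were the limit, the rule genes, the depth and mitochondrial limits, thinning, DESeq2 1.42.0, no block and each library left out.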

Additional observations from a re-analysis of the deposited data

How the results depend on the processing

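The order of the 4 shares was kept when any rule gene was left out. The shares in control, doxorubicin, doxorubicin+AMH and AMH were 5.52, 6.67, 16.6 and 11.4% with the top 10% of gated cells, and 20.4, 24.5, 42.1 and 33.4% with the top 30%. They were 20.02, 20.02, 20.03 and 20.03% with the limit set within each library, which fixes them. The doxorubicin+AMH share was 32.6% without Inhba in the score. With cells carrying other types' markers left out the shares were 11.6, 14.6, 27.4 and 24.3%. Against other gated cells of deciles 6 to 8, 2032 genes were higher and 2357 lower, with fewer other cells. Without the library block that pairs members with other cells, 2993 were higher and 3692 lower, and DESeq2 called 3464 and 3767. Leaving out 1 library at a time gave 2987 to 3407 higher and 3564 to 4160 lower. With no filter on low CPM, 8 of 8 BMP and SMAD targets were above 0 in both AMH pairs and 17 of 30 p53 targets in both doxorubicin pairs, the counts given above. With the 20 CPM filter and without Inhbb in the score, the first was 3 of 5, and the filter lets in genes through the libraries where they are high. Cyp17a1 turned to 0.63 and Acta2 to -0.092 with cells carrying other types' markers left out, and for both the cause was not tested beyond the filter's own use of such markers. Depth limits genes under about 20 CPM in the control members, which held 7385625 UMIs.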
